A study of Homo sapiens with 11 samples.

Results

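On each of 17 human chromosomes, the DNA flanking the centromere was taken as the 2 Mb on either side of the longest stretch that no enriched region reached. The regions were pooled from 8 lists, and those with a centre in these flanks numbered 10765. They made up 2.64% of the 407030 regions in the series and 3.07% of the 350771 regions on the 17 chromosomes, and the flanks spanned 68 Mb, or 2.88% of the length compared. Members were thus chosen by position alone, but the gap that sets the position was itself read from the region lists, so the first region at every edge is there by construction and the counts near the edge are given as descriptions without a test. The chromosomes used were 1 to 12 and 16 to 20. The outer limit of 2 Mb cut through no visible step, with 45 regions in the last 10 kb inside it and 44 in the first 10 kb outside it.

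The study examined how RepID, a replication origin binding protein, brings the CUL4 ubiquitin ligase to chromatin. It comprised 11 samples, of which 8 had a list of regions with 1 library each, and the 3 inputs without a list were not analysed here. The input titled as coming from the U2OS line with FLAG-RepID carries HCT116 as its cell line in the labels. From unsynchronized U2OS cells, an osteosarcoma line with intact RepID, came the lists of replication origins and of CUL4A, H3K4me3 and H3K9me3 ChIP-Seq. The CDT2 ChIP-Seq list is also from U2OS. The paper's results describe the cells as wild type, but the series description names a stable line overexpressing FLAG-tagged full-length RepID. Which of these holds could not be settled. From HCT116, a colon carcinoma line, came SKP2 ChIP-Seq in WT cells and in RepID KO cells made by CRISPR-Cas9, and the origins of a RepID KO clone. Origins were mapped by sequencing short nascent strands, the newly made DNA that withstands exonuclease digestion because it carries an RNA primer. No list states its number of reads, which leaves the depth unknown, and with 1 library each no spread between replicates could be measured. Intervals in brackets are 95% intervals that cover counting error only and treat neighbouring regions as independent, which they are not.

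Centromeres of human chromosomes consist of long arrays of near-identical satellite repeats, which the hg19 assembly leaves as runs of unknown bases. The DNA next to them is a patchwork of satellite blocks, segmental duplications and unique sequence, and is known for heterochromatin that carries H3K9me3. CUL4A is the cullin on which the ubiquitin ligase CRL4 is assembled, CDT2 is a substrate receptor that lets CRL4 mark proteins such as the licensing factor CDT1 for destruction during S phase, and SKP2 is the receptor of a separate ligase, SCF, with overlapping targets. H3K4me3 marks active promoters.

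The longest stretch stood clearly apart from all others on every chromosome used. It measured 3.0005 Mb at least, with a median of 3.10 Mb, whereas the second longest stretch of a chromosome measured from 0.135 to 1.06 Mb. On 14 chromosomes the gap was under 3.3 Mb, and 3 chromosomes had gaps over 10 Mb, chr1:121485601-142535400, chr9:47268601-65499800 and chr16:35284232-46385940. Gaps close to the shortest length lay at chr2:92326201-95337600, chr3:90504401-93511358, chr4:49660201-52669600, chr5:46405350-49411720, chr7:58054401-61054904, chr8:43835468-46849079 and chr17:22261663-25262800. Slightly longer gaps lay at chr6:58772601-61893589, chr10:39155001-42354800, chr11:51591272-54715400, chr12:34856401-37925200, chr18:15401001-18510800, chr19:24608999-27733213 and chr20:26319540-29421400. The regions that formed the 34 edges came from 6 lists. HCT116 RepID KO origins formed 11 of them, U2OS origins and CDT2 formed 7 each, H3K9me3 formed 6, CUL4A formed 5 and WT SKP2 formed 1, with some edges shared by several lists. H3K4me3 and RepID KO SKP2 formed 0.

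CDT2 peaks were packed into the flanks, and no other list came near this. The flanks held 1469 CDT2 peaks at 21.6 per Mb, against 10.2 per Mb in the rest of the same chromosomes, a 2.11-fold density (1.999 to 2.22). The density of CDT2 was above that of the rest of the chromosome on 15 of 17 chromosomes and on 27 of 34 sides. By chromosome the CDT2 ratio had a median of 1.41, below the pooled value, and ran from 0.491 on chromosome 19 to 4.56 on chromosome 10. SKP2 peaks were also denser, by 1.21-fold (1.09 to 1.34) in WT cells with 362 peaks and by 1.22-fold (1.10 to 1.35) in RepID KO cells with 412 peaks. The SKP2 excess was uneven, as WT SKP2 was denser on 9 chromosomes and RepID KO SKP2 on 7. Without chromosome 4 the ratio was 1.10 (0.986 to 1.23) for WT and 1.09 (0.978 to 1.21) for RepID KO SKP2, and both intervals included 1. With flanks of 5 Mb it was 1.09 (1.01 to 1.17) for WT and 1.04 (0.970 to 1.11) for RepID KO SKP2.

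In regions per Mb, the other lists were close to the rest. U2OS origins numbered 2990 and were less dense, at 0.923-fold (0.890 to 0.958), and the 1984 RepID KO origins lay at 0.9498-fold (0.908 to 0.993). The 1423 CUL4A regions lay at 1.03-fold (0.972 to 1.08), the 619 H3K4me3 regions at 1.02-fold (0.939 to 1.10) and the 1506 H3K9me3 regions at 1.06-fold (1.004 to 1.11). The density of H3K9me3 regions in the flanks was thus close to that elsewhere. These regions were narrow, with a median width of 334 bp in the flanks and 321 bp in the rest. Their deposited −log10 q was low, with medians of 2.45 and 2.55. Counts of such regions do not measure how much broad heterochromatin the flanks hold. Bases covered gave another picture for some lists. U2OS origins covered 17.5% of the flanks and 15.4% of the rest, CUL4A 6.73% and 5.59%, and RepID KO origins 10.5% and 10.3%. H3K9me3 covered 1.06% and 0.968%, and H3K4me3 1.92% and 2.05%. The median U2OS origin was 2600 bp wide in the flanks and 2400 bp in the rest, so fewer origin regions did not mean less covered DNA. All lists together came to 158 regions per Mb in the flanks and 148 per Mb in the rest, a ratio of 1.07 (1.05 to 1.09), with 8 of 17 chromosomes and 14 of 34 sides above their own rest. The ratio was 0.994 (0.973 to 1.02) against the DNA 2 to 10 Mb beyond the edges, and 1.01 (0.986 to 1.03) without chromosome 20 and 1.02 (0.997 to 1.04) without chromosome 4, intervals that all include 1. Against a second kind of chromosomal landmark, the outermost 2 Mb at the chromosome ends, the flanks were sparse, with 0.571 times as many regions per Mb. CDT2 was again the exception, at 1.23-fold (1.14 to 1.33) the density of the chromosome ends, while each of the other 7 lists lay below 1.

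The CDT2 excess rose towards the gap. In the first 250 kb from an edge there were 401 CDT2 peaks, 4.60-fold (4.16 to 5.08) the density of the rest, and the following bins of 250 kb were at 2.50-fold, 2.63-fold and 1.69-fold. From 1 to 2 Mb the bins ranged from 1.24-fold to 1.56-fold. Beyond the limit, the density was 1.46-fold from 2 to 3 Mb and 0.936-fold from 3 to 4 Mb. Of the 401 peaks, at most 7 are at an edge by construction. SKP2 was likewise densest in the first bin, at 2.22-fold (1.76 to 2.75) in WT cells and 2.44-fold (1.99 to 2.97) in RepID KO cells within 250 kb, from 83 and 103 peaks.

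**Figure D1:**
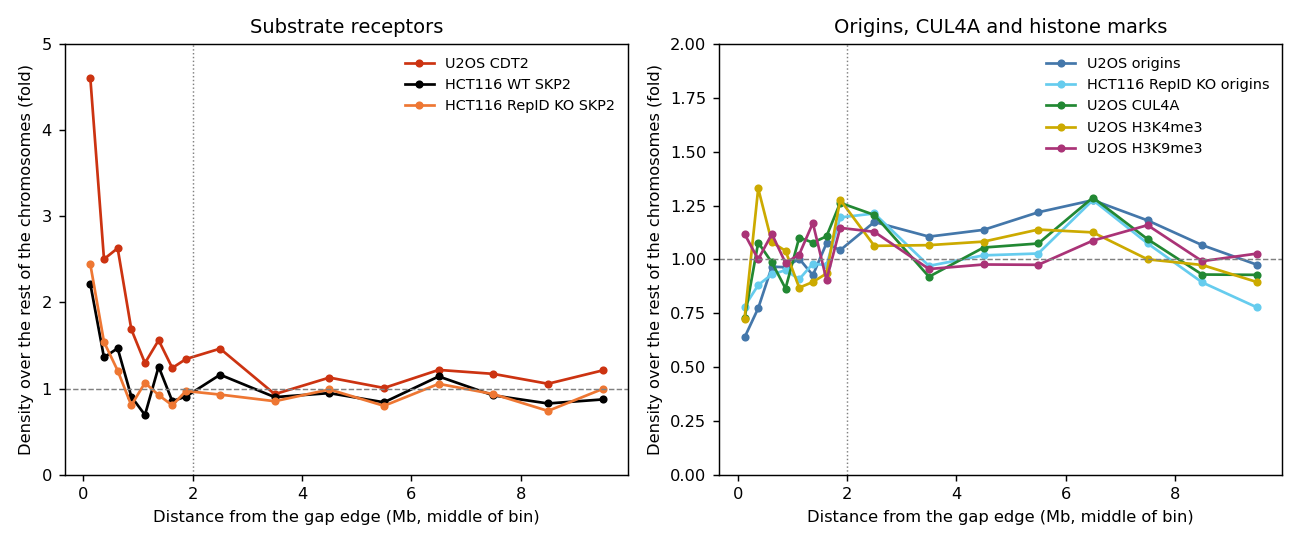
Density of each list by distance from the gap edge (x axis, Mb, middle of the bin), as fold over the rest of the 17 chromosomes (y axis), with bins of 0.25 Mb inside the flanks and 1 Mb beyond. The dotted vertical line is the 2 Mb limit and the dashed horizontal line the density of the rest. CDT2 falls from 4.60-fold in the first bin to about 1, both SKP2 lists start above 2, and U2OS origins, RepID KO origins, CUL4A and H3K4me3 start below 1.

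Counted per Mb, origins thinned out over the same distance, while bases covered by each list were not measured by distance. Within 250 kb of an edge U2OS origins were at 0.637-fold (0.562 to 0.720) with 258 regions, CUL4A at 0.726-fold (0.605 to 0.865) with 126, RepID KO origins at 0.781-fold (0.678 to 0.896) with 204, and H3K4me3 at 0.724-fold (0.545 to 0.943) with 55. H3K9me3, with 199 regions, was at 1.12-fold (0.968 to 1.29), an interval that includes 1. From 250 to 500 kb CUL4A and H3K4me3 were at 1.08-fold and 1.33-fold, whereas U2OS origins were still at 0.773-fold. Farther out both varied around 1, down to 0.865-fold for CUL4A from 750 kb to 1 Mb and 0.869-fold for H3K4me3 from 1 to 1.25 Mb. Among the bins within 10 Mb of an edge, the receptor CDT2 was densest in the same bin in which CUL4A was sparsest.

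The peaks next to the gap were spread over most chromosomes. CDT2 had at least 1 peak within 250 kb on 33 of 34 sides, with a median of 9 per side, and exceeded the rest of its chromosome on 29. The short-arm side of chromosome 10 held 58, which was 18.6-fold the density of the rest of that chromosome. Next came the long-arm side of chromosome 20 with 36, the long-arm side of chromosome 12 with 29 and the short-arm side of chromosome 3 with 27. The 3 sides with most held 30.7% of the 401 peaks. The long-arm side of chromosome 18 held 0. WT SKP2 exceeded the rest on 21 sides and RepID KO SKP2 on 20, and both had most peaks, 11 and 13, on the long-arm side of chromosome 10.

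**Figure D2:**
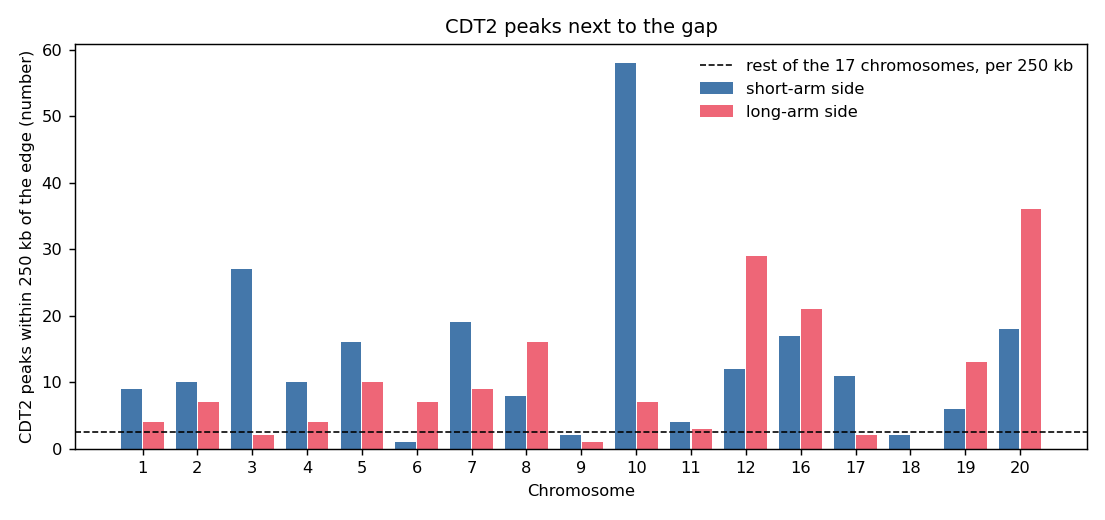
Number of CDT2 peaks (y axis) within 250 kb of the gap edge on the short-arm side (blue) and long-arm side (red) of each of the 17 chromosomes (x axis). The dashed line is the mean number per 250 kb in the rest of the 17 chromosomes. Bars reach 58 on chromosome 10, and the long-arm side of chromosome 18 has 0.

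These inner CDT2 peaks also kept different company. Within 250 kb, 24.9% (20.95 to 29.4%) of CDT2 peaks met a U2OS origin, against 51.3% from 250 kb to 2 Mb and 64.2% (63.6 to 64.8%) in the rest. For CUL4A, its partner in the same ligase, the shares were 25.7% (21.7 to 30.2%), 53.3% and 58.6%. For H3K9me3 they were 13.7%, 30.7% and 44.2%, and for H3K4me3 2.74%, 9.18% and 9.77%. The shares thus fell in order towards the gap for all 4 other U2OS lists. For H3K4me3 the interval from 250 kb to 2 Mb, 7.59 to 11.1%, included the share of the rest. The median width of CDT2 peaks was 422 bp within 250 kb, 582.5 bp from 250 kb to 2 Mb and 554 bp in the rest. U2OS origins, CUL4A and H3K4me3 are themselves sparser within 250 kb, but H3K9me3 is not. The part of width and partner density in these shares was not tested. The HCT116 lists did not follow this order. CDT2 peaks met RepID KO origins in 39.2%, 52.7% and 43.4%, WT SKP2 in 9.98%, 8.33% and 9.13%, and RepID KO SKP2 in 10.5%, 7.87% and 8.11%. Counted the other way, shares meeting CDT2 rose towards the gap for CUL4A, U2OS origins and H3K9me3. Of CUL4A regions, 51.6% (42.9 to 60.1%) met CDT2 within 250 kb, 32.5% from 250 kb to 2 Mb and 26.4% in the rest. For U2OS origins the shares were 20.5%, 15.4% and 12.3%, and for H3K9me3 27.1%, 24.6% and 21.01%. For H3K4me3 they were 14.5% (7.56 to 26.2%), 15.4% and 10.5%, without that order. CDT2 is itself denser near the gap, and the part of its density was not tested.

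Many inner CDT2 peaks stood alone. In total 221 of the 401 inner CDT2 peaks, 55.1% (50.2 to 59.9%), met no other U2OS list, against 15.02% (14.6 to 15.5%) in the rest. Of these 221, 80 met an HCT116 list, and 141 peaks, or 35.2% of the 401, met no other list at all, against 11.9% in the rest. Inner CDT2 peaks were close to each other, with a median space of 2442.5 bp to the next CDT2 peak, compared with 9176 bp from 250 kb to 2 Mb and 39662 bp in the rest. Clusters of peaks were thus common, and neighbouring peaks cannot be counted as separate events.

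**Figure D3:**
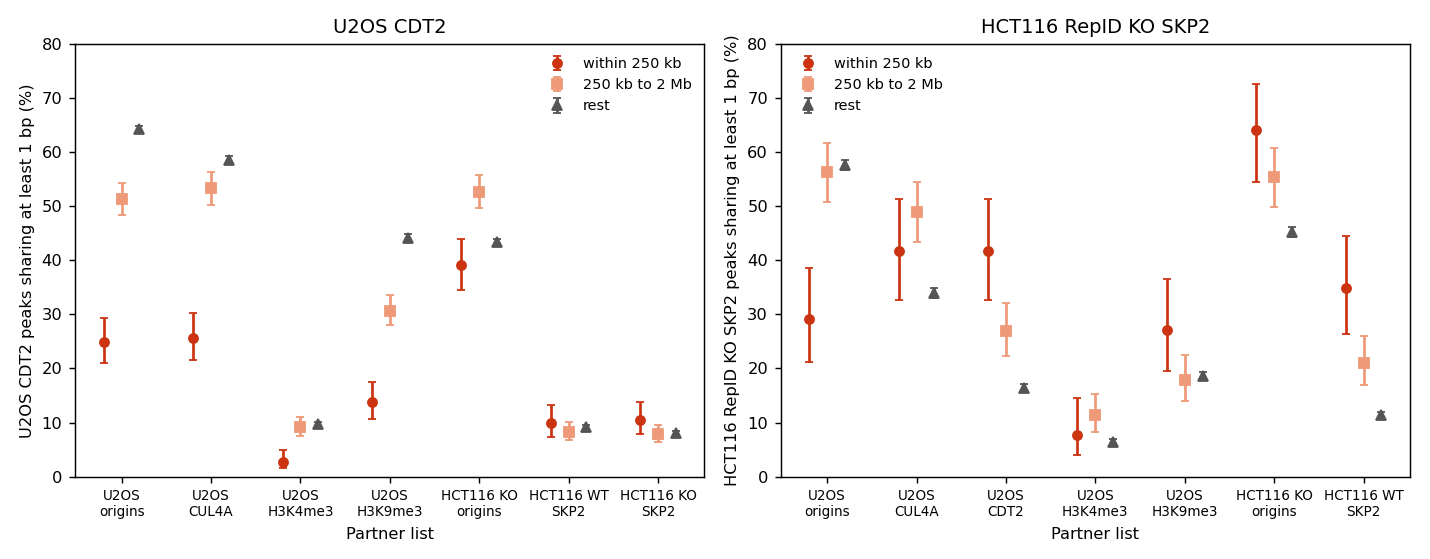
Percentage (y axis) of U2OS CDT2 peaks (left) and of HCT116 RepID KO SKP2 peaks (right) that share at least 1 bp with each other list (x axis), within 250 kb of the gap edge (circles), from 250 kb to 2 Mb (squares) and in the rest of the 17 chromosomes (triangles), with Wilson 95% intervals. For CDT2 the circles lie lowest for the 4 other U2OS lists, at 24.9% for origins, 25.7% for CUL4A, 13.7% for H3K9me3 and 2.74% for H3K4me3. For SKP2 the circle lies below the triangle for U2OS origins, at 29.1%, and above it for CDT2, at 41.7%.

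SKP2 peaks in the flanks were more often shared between the HCT116 libraries than elsewhere. Of the 362 WT SKP2 peaks, 100 met a RepID KO SKP2 peak, 27.6% (23.3 to 32.4%) against 12.8% (12.2 to 13.5%) in the rest, and of the 412 RepID KO peaks 101 met a WT peak, 24.5% (20.6 to 28.9%) against 11.4%. Within 250 kb these shares were 43.4% and 35.0%. Both SKP2 lists are themselves denser there, at 2.22-fold and 2.44-fold, and the part of their density in these shares was not tested. SKP2 peaks also cluster, with 10 WT and 14 RepID KO peaks in chr4:49276038-49338400 alone, so shared peaks cannot be counted as separate events. With 1 library for each genotype, the values describe these libraries and not an effect of RepID loss.

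SKP2 and CDT2, measured in different cell lines, met often next to the gap. Within 250 kb, 51.8% (41.2 to 62.2%) of WT SKP2 peaks met a CDT2 peak, against 20.9% in the rest, and for RepID KO SKP2 the shares were 41.7% (32.7 to 51.4%) and 16.4%. CDT2 peaks are themselves denser there, and the part of their density in these shares was not tested. Meetings with U2OS origins went the other way, at 19.3% and 29.1% within 250 kb against 55.2% and 57.6% in the rest. U2OS origins are sparser within 250 kb, and the part of their density was not tested either. In the flanks as a whole, 58 of the 100 WT SKP2 peaks shared with RepID KO cells also met CDT2, 58.0%, compared with 26.7% of the 262 unshared ones. The rest of the chromosomes showed the same order, with 37.8% of shared and 18.4% of unshared WT SKP2 peaks meeting CDT2.

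Most members met some other list, at nearly the background rate. At least 1 other list was met by 7932 members, 73.7% (72.8 to 74.5%), against 72.4% in the rest and 72.5% of all regions on the 17 chromosomes, and the chromosome ends stood higher at 87.0%. At least 4 other lists were met by 1708 members, 15.9% (15.2 to 16.6%), against 12.2% in the rest and a background of 12.3%, with 20.7% at the chromosome ends. All 7 other lists were met by 13 members, 0.121% (0.0706 to 0.207%), against 0.145% in the rest and a background of 0.144%. The share in the flanks was thus slightly higher for regions that met any other list, by a ratio of 1.02 (1.01 to 1.03), and higher for those that met several, by 1.30, while for all 7 the interval included the background. Without chromosome 20 the ratio for any other list was 0.996 (0.984 to 1.01).

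By list, WT SKP2 and RepID KO SKP2 members met at least 4 other lists most often, in 33.7% and 28.9%, compared with 20.6% and 16.6% in the rest. CUL4A followed with 21.4% against 16.7%, and H3K4me3 with 20.4% against 13.8%. CDT2 was the only list with a lower share in the flanks than in the rest, 17.2% (15.4 to 19.2%) against 24.1% (23.6 to 24.7%). At the chromosome ends the shares were 37.5% for WT SKP2, 27.8% for RepID KO SKP2, 20.5% for CUL4A and 18.3% for H3K4me3. The share of CDT2 there was 39.1%. High shares of SKP2 and CUL4A were thus not particular to the flanks. Over the 56 ordered pairs of lists, the share was higher in the flanks for 47, with intervals apart for 25, and lower with intervals apart for 6. The ratio of shares had a median of 1.12 and ran from 0.590, for CDT2 peaks meeting H3K9me3, to 2.15, for SKP2 peaks of either genotype meeting the other.

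The flanks differed widely from one chromosome side to the next. Sides held from 111 to 751 regions, and the density ran from 55.5 to 375.5 per Mb with a median of 139.75. Compared with the rest of the same chromosome, 7 sides reached 1.5-fold or more and 9 lay at 0.67-fold or less. Both sides were above on 5 chromosomes, both below on 8 and apart on 4. No single side therefore stands for the others.

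The 3 densest sides relative to their chromosome were the short-arm side of chromosome 4 at 2.42-fold with 382 regions, its long-arm side at 2.14-fold with 338, and the long-arm side of chromosome 2 at 2.03-fold with 598. On the short-arm side of chromosome 4 the excess was largest for SKP2, at 6.10-fold in WT cells and 8.59-fold in RepID KO cells, followed by CDT2 at 4.46-fold, while on its long-arm side origins and CUL4A led, at 2.58-fold and 2.50-fold. The 3 sparsest were the short-arm side of chromosome 19 at 0.173-fold with 111 regions, the long-arm side of chromosome 11 at 0.425-fold with 141 and the short-arm side of chromosome 3 at 0.445-fold with 115. The long-arm side of chromosome 3, also with 115 regions, tied with the last. On the short-arm side of chromosome 19 the sparseness was strongest for U2OS origins, with 5 at 0.0313-fold, while 56 RepID KO origins lay at 0.353-fold. The short-arm side of chromosome 3 had 17 U2OS origins at 0.177-fold but 35 CDT2 peaks.

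Some flanks also had a long empty stretch of their own. The second longest stretch of chromosome 2, 1058710 bp, lay in the flank of its short arm, and the longest of the short-arm flank of chromosome 11 measured 334200 bp. The longest in the short-arm flank of chromosome 9 measured 266113 bp.

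**Figure D4:**
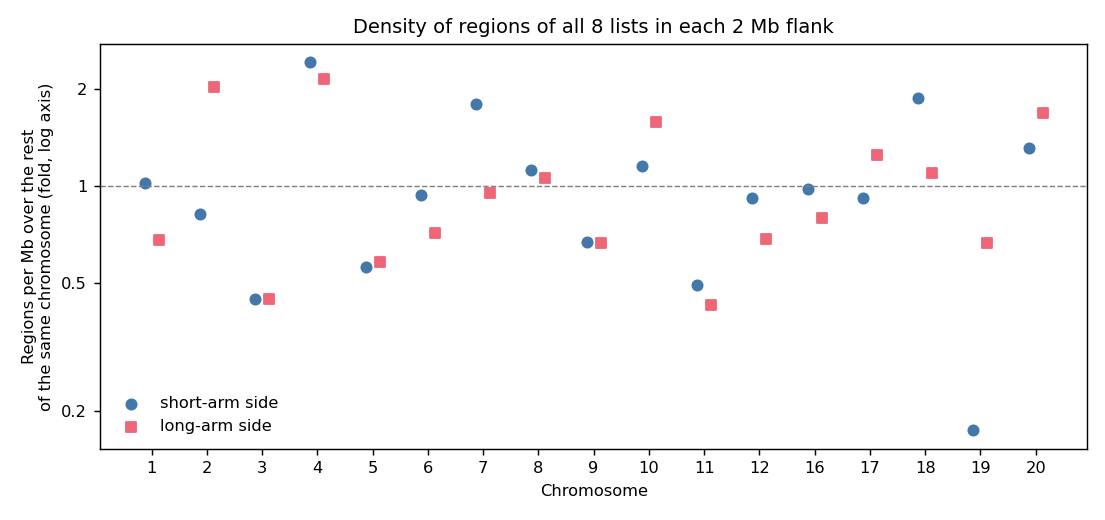
Density of regions of all 8 lists in each 2 Mb flank (y axis, fold over the rest of the same chromosome, log axis) for the short-arm side (circles) and long-arm side (squares) of the 17 chromosomes (x axis). The dashed line is a fold of 1. Points run from 0.173 on chromosome 19 to 2.42 on chromosome 4, with 14 of 34 above 1.

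High-scoring regions were overrepresented in the flanks. Each list carries a score of the authors, and a region was counted when its score was in the top 1% of its own list. The flanks held 218 such regions, 2.03% (1.78 to 2.31%) of members, against 0.938% (0.906 to 0.971%) in the rest and 0.971% of all regions on the 17 chromosomes. The share was highest for SKP2, with 4.61% (2.97 to 7.09%) of RepID KO peaks against a background of 0.975% and 3.04% (1.71 to 5.36%) of WT peaks against 0.994%. CUL4A had 2.32% (1.66 to 3.24%) against a background of 0.977%, U2OS origins 2.27% (1.80 to 2.87%) against 0.938%, and CDT2 1.97% (1.38 to 2.82%) against 0.917%. Of the 19 high-scoring RepID KO SKP2 peaks, 8 lay in a single stretch, chr4:49276038-49338400, and without it the share was 2.76% (1.55 to 4.88%), against 2.84% (1.55 to 5.15%) for WT SKP2. For CDT2, the share without chromosome 4 was 1.42% (0.919 to 2.18%). RepID KO origins followed with 1.76% (1.27 to 2.44%) against a background of 1.01%. For H3K4me3 the 1.78% (0.995 to 3.15%) came from 11 regions and the interval included the background of 0.98%. H3K9me3 was the only list below its background, with 12 regions, 0.797% (0.456 to 1.39%) against 1.01%, and that interval also included the background.

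**Figure D5:**
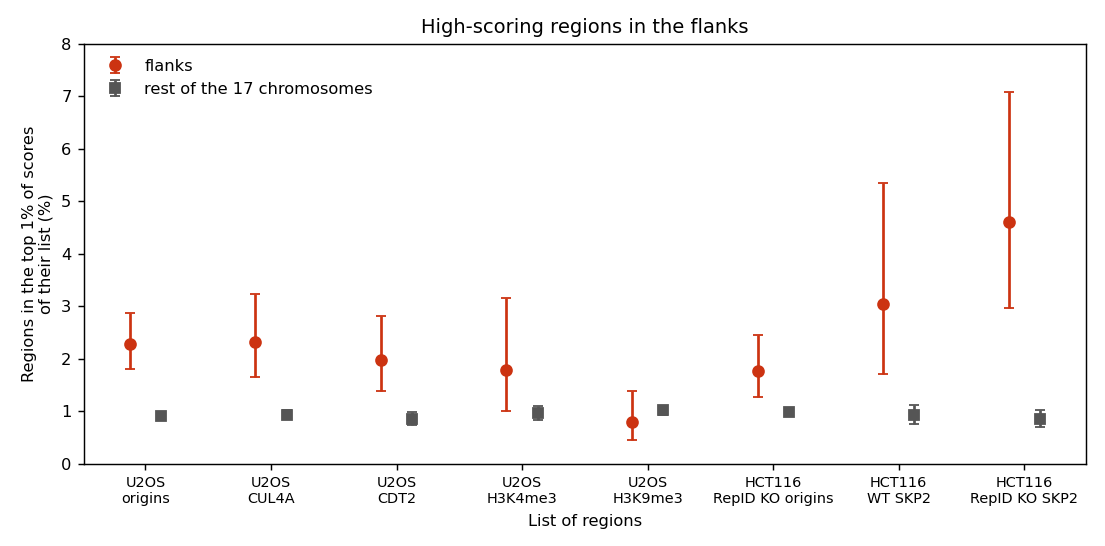
Percentage of regions with a score in the top 1% of their own list (y axis), in the flanks (circles) and in the rest of the 17 chromosomes (squares), for each of the 8 lists (x axis), with Wilson 95% intervals. RepID KO SKP2 is highest in the flanks at 4.61%, and H3K9me3, at 0.797%, is the one list below the rest.

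The median score of SKP2 peaks was also higher in the flanks. The median score of WT SKP2 peaks was 625.5 in the flanks and 376 in the rest, and that of RepID KO SKP2 peaks 532 and 357. CDT2 moved from 26.95 in the rest to 30.99, U2OS origins from 92 to 105 and CUL4A from 61 to 72. The histone marks went slightly the other way, H3K4me3 from 125 in the rest to 109 in the flanks and H3K9me3 from 25 to 24, and their fold enrichment over the control had medians of 6.28 against 7.17 and 3.85 against 4.04.

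The high-scoring members were concentrated. The short-arm side of chromosome 4 held 32, the long-arm side of chromosome 10 held 29 and the short-arm side of chromosome 17 held 25, together 39.4% of the 218. They occurred on 27 of 34 sides, and 51 lay within 250 kb of an edge. They also met many lists, with 68.3% meeting at least 4 others, close to the 73.9% of the high-scoring regions in the rest.

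The leading members of several lists fell in one cluster on the short-arm side of chromosome 4. The U2OS origin at chr4:49280201-49336400 was the highest-scoring origin of the flanks and ranked 3 of 127325 in its list. CUL4A at chr4:49280601-49333800 ranked 2 of 56715, and each of these met 6 of the 7 other lists, missing CDT2. A RepID KO SKP2 peak at chr4:49308215-49308653, which ranked 10 of 13885, lay inside them. Nearer still to the gap was a RepID KO SKP2 peak at chr4:49514796-49515157, ranked 12.

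A second block, farther from the gap, was led by CDT2 and by RepID KO origins. CUL4A at chr4:49093201-49159800 ranked 5, the RepID KO origin at chr4:49093201-49158800 ranked 2 of 85555, and the CDT2 peak at chr4:49107010-49115263 ranked 4 of 28516. No U2OS origin overlapped any of these 3. The CDT2 peak at chr4:49637750-49645133 ranked 5 and lay 18.8 kb from the edge.

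The leading members elsewhere often stood with fewer partners. The second of the U2OS origins, chr2:91741401-91827200, ranked 8 and met 6 lists, while the second of the RepID KO origins, chr10:42354801-42403200, ranked 3 and formed the edge of the gap without a U2OS origin or CUL4A region. The highest WT SKP2 peak, chr10:42599777-42600085, ranked 3 of 12221 and met 1 list, and the next, chr16:46406294-46406711, ranked 10 and met 0. Neither of these WT SKP2 peaks met a RepID KO SKP2 peak, although 43.4% of all WT SKP2 peaks within 250 kb did, against 12.8% in the rest.

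The leading members of the histone marks lay at various distances. H3K4me3 at chr17:20433351-20437431 ranked 9 of 25181, with a fold enrichment of 28.3 over the control and a −log10 q of 191, and lay 1826 kb from the edge. The next H3K4me3 region, chr1:120188067-120191925, ranked 40 with a fold enrichment of 22.2, at 1296 kb. H3K9me3 at chr18:13445247-13445912 ranked 61 of 57632 with a fold enrichment of 4.46, at 1955 kb, and chr7:57696272-57696800 came next with 4.24, at 358 kb. No H3K9me3 region in the flanks was among the 10 highest of its list. The flanks held 1506 of the 49533 H3K9me3 regions on the 17 chromosomes, so a count from 10 regions cannot show a depletion.

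When overlapping regions of all lists were merged, the flanks held 4761 stretches and the rest 161307. All 8 lists were present in 8 stretches of the flanks, 0.168% (0.0852 to 0.331%), against 0.153% in the rest and a background of 0.154%, so the flanks were not richer in them than their share. Stretches with 6 lists made up 2.12% (1.75 to 2.57%) against 1.52%, and those with 7 lists 0.840% (0.618 to 1.14%) against 0.598%. The 8 stretches lay on 6 sides, between 98.9 and 1949 kb from the edge, and 4 of them held a high-scoring region.

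The stretch with the highest CUL4A score was chr4:49276038-49338400, the cluster described above. It held 47 regions, 13 of them in the top 1% of their list, with 12 H3K4me3 regions, 10 WT SKP2 peaks and 14 RepID KO SKP2 peaks, 8 of which were high-scoring. U2OS origins covered 94.9% of its length, RepID KO origins 96.9% and CUL4A 85.3%, whereas CDT2 touched 1.26% of it with a single peak ranked 16499. Its H3K9me3 regions covered 2.88%.

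The second, chr17:21213601-21344800, was the widest at 131200 bp and held 40 regions, 8 of them high-scoring and from 6 lists. Its leading CUL4A region, chr17:21304801-21330800, ranked 45 and its leading H3K9me3 region ranked 324. In contrast with the cluster on chromosome 4, CDT2 had the best rank, 48, in the third stretch, chr7:57544601-57557000. It had 7 peaks there that covered 90.7% of the 12400 bp, and 3 were high-scoring. CUL4A covered 95.2% and RepID KO origins covered 100% of this stretch, while the U2OS origin there covered 12.9% and ranked 86114.

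In chr18:13444601-13458800, H3K9me3, CDT2, H3K4me3 and SKP2 of both genotypes each had a region overlapping chr18:13445247-13445912, beside U2OS origins that covered 71.8% of the stretch. In chr20:31166201-31205800, CUL4A covered 84.3%, U2OS origins 66.2% and RepID KO origins 68.2%, with 23 regions and 0 that were high-scoring. Among these 5 stretches, the best score rank belonged to CUL4A on chromosomes 4, 17 and 20, at 2, 45 and 1044. It belonged to CDT2 on chromosome 7, at 48, and to H3K9me3 on chromosome 18, at 61. No single list thus had the best rank in all 5, and the lists differ in length.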

How the data were processed

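Per the labels, DNA was enriched by ChIP or isolated as nascent strands from asynchronous cells, and the submitters' processing notes name hg19, MACS and SICER. The authors called regions in each library before depositing them. CUL4A regions and origins lie on a 200 bp grid, and the methods name SICER with a gap of 600 bp, with origins kept at a false discovery rate of 0.01 and CUL4A regions at 1e-05. For CDT2 and SKP2 the methods name MACS2, although the CDT2 list looks like output of an older MACS. For the histone marks they name SICER, although the deposited lists are in the broad peak format of MACS2. Every deposited list carries a score of the authors. For the histone marks this is 10 times the deposited −log10 q, and a ratio made by the authors gives the fold enrichment over a control. Scores were ranked within a list only. How reads matching several places were handled is not given in the sources used here.

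Regions on each chromosome were merged and the longest stretch between them was taken as the gap. Members had their centre within 2 Mb of an edge, and the rest is all other regions between the first and last region of the chromosome. Regions met when they shared at least 1 bp. Shares have Wilson intervals and density ratios exact binomial intervals at 95%. For each list the 2 members with the highest score were named, and the stretches with all 8 lists, 5 of them in full. Members, lists and named sets were chosen with earlier results of these data known. Overlap counting was tested on simulated data, where 0 of 96000 answers differed from a direct count. Python 3.11.15, NumPy 2.4.6, pandas 2.3.3, SciPy 1.17.1 and matplotlib 3.10.9 were used. No sequence was printed and no gene assigned, since no genome or annotation of this build was used here.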

Additional observations from a re-analysis of the deposited data

How the results depend on the processing

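The 1.07-fold density of all regions became 0.994 against the region 2 to 10 Mb beyond the edges, and rose to 1.19 with regions at or above the median score, 1.22 without the origin lists and 1.12 without chromosomes 1, 9 and 16. The ratio of shares meeting at least 1 other list was 1.00127 with flanks of 5 Mb and 1.00001 with 1 kb around each centre, and 1.04 (1.03946) at or above the median score, 1.04 (1.03696) with 50% of the region covered, 1.06 without origins and 1.03 without chromosomes 1, 9 and 16. The ratio for at least 4 lists was 1.37 (1.36841) against 2 to 10 Mb, 1.44 and 1.10 with flanks of 1 and 5 Mb, 1.37 (1.36616) at or above the median score, 1.39 with 50% covered, 1.13 with 1 kb and 1.53 without origins. The ratio for high scores, 2.16, was 2.89 against 2 to 10 Mb, and 2.70 (2.695) and 1.36 with flanks of 1 and 5 Mb. For CDT2, whose results were chosen after seeing the data, the flank density was 1.84 (1.8351) against 2 to 10 Mb, 2.84 and 1.56 with flanks of 1 and 5 Mb and 2.61 at or above the median score, and the density within 250 kb was 4.01 and 6.17 under the first and last of these. Lists near 1 changed side. CUL4A was at 0.912 (0.842 to 0.986) with flanks of 1 Mb and 0.946 (0.893 to 1.001) without chromosome 20. It was at 1.19 (1.11 to 1.28) at or above the median score and 1.13 (1.07 to 1.20) without chromosomes 1, 9 and 16. H3K4me3 was at 0.943 (0.837 to 1.06) at or above the median score and 1.10 (1.01 to 1.20) without chromosome 19. U2OS origins were at 1.06 (1.05952) with flanks of 5 Mb and 1.06 (1.06426) at or above the median score, H3K9me3 at 0.987 at or above the median score, and RepID KO origins at 1.02 with flanks of 5 Mb and 1.00058 without chromosome 11. The causes were not tested.

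Leaving out each chromosome in turn, also chosen after seeing the data, gave 1.01 (without 20) to 1.11 (without 11) for the density of all regions, 0.996 (without 20) to 1.03 for at least 1 list, 1.22 to 1.38 for at least 4, 1.92 (without 4) to 2.38 for high scores, 1.89 (without 20) to 2.23 for CDT2 in the flanks 4.15 (without 10) to 4.88 for CDT2 within 250 kb and 0.884 (without 20) to 1.00058 for RepID KO origins. The high-score shares without chromosome 4 or its stretch were likewise chosen after seeing the data. No paired analysis was possible because each condition had 1 library. Depth, replicate spread and input signal at these sites are unknown here, and the counting intervals are too narrow where peaks cluster.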

Other observations

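Chromosomes outside the rule gave further values. On chromosome X the longest stretch without a region was chrX:58573588-61682069, of 3.11 Mb, and 49 CDT2 peaks lay within 250 kb of its edges, 30.4-fold the density of the rest of that chromosome, with 59 within 2 Mb at 4.57-fold. U2OS origins within 250 kb numbered 9 and CUL4A regions 7, at 2.24-fold and 2.30-fold the density of the rest of chromosome X. Folds by distance for the 17 chromosomes were over their pooled rest. The folds of single chromosomes given here, CDT2 included, are therefore not directly comparable with them. Within 250 kb on the 17 chromosomes, U2OS origins and CUL4A each exceeded the rest of their own chromosome on 8 sides, and lay below it on most sides. On chromosome 21 the longest stretch was chr21:11171916-14338301, of 3.17 Mb, with 19 CDT2 peaks within 250 kb at 4.79-fold and 111 within 2 Mb at 3.499-fold. RepID KO SKP2 there had 9 peaks within 250 kb at 3.19-fold and WT SKP2 had 3 at 1.09-fold. U2OS origins were at 0.580-fold and RepID KO origins at 0.472-fold within the same distance. On chromosomes 13, 14, 15 and 22 the longest stretch between regions was 0.540, 0.341, 0.503 and 0.224 Mb, so no gap of the size seen on the chromosomes above separated regions there. Chromosome Y is not reported here.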
